A study of Mus musculus with 273 samples.

Results

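miR-204 and miR-211 are a pair of closely related microRNAs, short regulatory RNAs that bind matching sites in messenger RNAs and lower the output of those messengers. The members here are the rows named mmu-mir-204 and mmu-mir-211, 2 of the 1226 miRNA hairpins counted in each tissue. They were picked by name, though with earlier results of these data known. Small RNA came from the hypothalamus (72 libraries), the right striatum (46 libraries), the right cerebral cortex (78 libraries) and the liver (77 libraries). All mice were male, wild type, of the inbred strain C57BL/6J and 26 weeks old, with no treatment named, and were collected every 3 h over 36 h, so that every library differs from the others by tissue, by zeitgeber time (ZT) or by animal. ZT counts hours within a 24 h day from its start, conventionally the moment the lights come on; the light cycle itself was not given in the sources used here. The labels carry 79 animal codes, of which 42 have all 4 tissues. The code of a striatum library (ZT9 replicate 9) lacks a letter that all other codes have, and is otherwise that of a mouse collected at the same 33 h with libraries of the other tissues. It may be a misprint; it was kept as an animal of its own, and some within-animal values are also given with the codes joined.

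In the brain, miR-204 is known as a miRNA of the choroid plexus, the sheet of epithelium inside the ventricles that makes cerebrospinal fluid. It is processed out of an intron of Trpm3, which encodes a cation channel, and is also known from the retinal pigment epithelium. miR-211 comes from an intron of Trpm1, a channel gene of melanocytes and retinal bipolar cells, and is best known from pigment cells. A miRNA finds its targets mainly through its seed, bases 2 to 8 from the 5′ end, so miRNAs that share a seed can bind many of the same sites.

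The mature sequences show how alike the members are. They are printed 5′ to 3′ from RefSeq (GRCm38.p6), with the seed in capitals.
mmu-miR-204-5p: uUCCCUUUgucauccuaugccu
mmu-miR-211-5p: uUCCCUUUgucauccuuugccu
mmu-miR-204-3p: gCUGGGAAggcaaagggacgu
mmu-miR-211-3p: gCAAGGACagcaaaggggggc
The 5p arms are 22 bases long and differ by a single substitution, A17U, counted from the 5′ end with the miR-204 base first. The first 16 bases are the same in both. The seed UCCCUUU is found in 3 of the 1738 mouse mature miRNAs of the RefSeq table, the other being miR-7670-3p. The 3p arms have different seeds, and the longest run they share is the 8 bases gcaaaggg.

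The hairpins, the units that were counted, differ more, in their length, loop and flanks. Here the capitals mark the mature arms.
Mir204: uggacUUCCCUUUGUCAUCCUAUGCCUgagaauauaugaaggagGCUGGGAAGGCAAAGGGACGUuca
Mir211: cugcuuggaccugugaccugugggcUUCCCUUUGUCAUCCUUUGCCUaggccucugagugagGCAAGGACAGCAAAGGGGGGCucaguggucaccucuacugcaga
The Mir204 hairpin spans 68 bases at chr19:22750605-22750672 on the plus strand of GRCm38. It lies within an intron, in the sense direction, of all 18 annotated Trpm3 transcripts that span it. The Mir211 hairpin spans 106 bases at chr7:64205806-64205911 on the plus strand, within an intron of all 12 Trpm1 transcripts that span it, also in the sense direction. A hairpin count adds both arms, so the arms were not separated here.

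Library totals ran from 26341 to 5236177 counts with a median of 2734808. In all, 10 libraries stood apart from the rest of their tissue over all hairpins (4 of striatum, 3 of cortex, 2 of hypothalamus and 1 of liver), by a total under 10% of the tissue median or by a low rank correlation with the other libraries. They were kept, and results are also given without them where that matters. Consecutive library numbers under a common L code in the labels were treated as a library run, which gave 14 runs, and the meaning of that code was not given. Levels are in CPM, the count of a hairpin for every 1000000 counts of its library. The hypothalamus, striatum and cortex are dissected blocks, so fewer cells of a type and less RNA per cell cannot be told apart.

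By hairpin counts, miR-204 was among the most abundant miRNAs of the brain blocks and close to 0 in liver. It averaged 17592 ± 1723 CPM in hypothalamus (SD, n = 72), where it ranked 12 by mean level. It averaged 23622 ± 21045 CPM in striatum (SD, n = 46), rank 8, and 5683 ± 4427 CPM in cortex (SD, n = 78), rank 31. In liver the mean was 0.840 ± 0.880 CPM (SD, n = 77).

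The spread around these means differed as much as the means did. The lowest, median and highest hypothalamus libraries had 12833, 17595 and 21448 CPM of miR-204, a coefficient of variation of 9.79%. In striatum the same values were 7745, 14553 and 104951 CPM, a coefficient of variation of 89.1%. In cortex they were 3668, 4882 and 41841 CPM, or 77.9%. The hypothalamus values thus formed a narrow band, while striatum and cortex had a dense lower group of libraries and a tail of high ones, and the striatum range spanned that of the hypothalamus. All brain libraries lay above all liver libraries.

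Fitted biological variation around the ZT means gave the same order. In hypothalamus it was 11.3% for miR-204, against a median of 18.98% over the 400 hairpins tested there, rank 371 from the most variable. In striatum it was 69.4% against a median of 30.9% over 411 hairpins, rank 21. In cortex it was 39.9% against a median of 17.3% over 413 hairpins, rank 39.

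miR-211 was a rare miRNA in every tissue. Its mean was 14.7 ± 4.76 CPM in hypothalamus, 12.6 ± 9.70 CPM in striatum and 12.8 ± 7.17 CPM in cortex (SD, n = 72, 46 and 78). The lowest, median and highest libraries had 4.36, 14.3 and 29.1 CPM in hypothalamus. They had 1.11, 10.8 and 46.2 CPM in striatum. They had 1.62, 10.8 and 44.2 CPM in cortex. The brain tissues therefore overlapped over most of their range. These levels rest on a median of 29.5 counts per library in hypothalamus, 24 in striatum and 35 in cortex, where counting error alone gives a coefficient of variation of 18.4%, 20.4% and 16.9%. The observed coefficients of 32.3% in hypothalamus, 77.1% in striatum and 56.1% in cortex were larger.

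In liver both members were near the limit of counting. miR-204 had 0 to 11 counts per library, 181 in all, and was at 0 in 19 of the 77 libraries. miR-211 had 0 to 12 counts, 231 in all, and was at 0 in 8. At 0 counts a true level of up to 3 counts cannot be told from 0, which corresponds to 0.573 to 1.51 CPM across the liver libraries and covers counting error only. The liver libraries of the run that also held a hypothalamus library had 1 to 11 counts of miR-204 and none of those 25 was at 0, while the other liver runs had 19 of 52 at 0. The part of that run in the liver values was not tested.

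**Figure D1:**
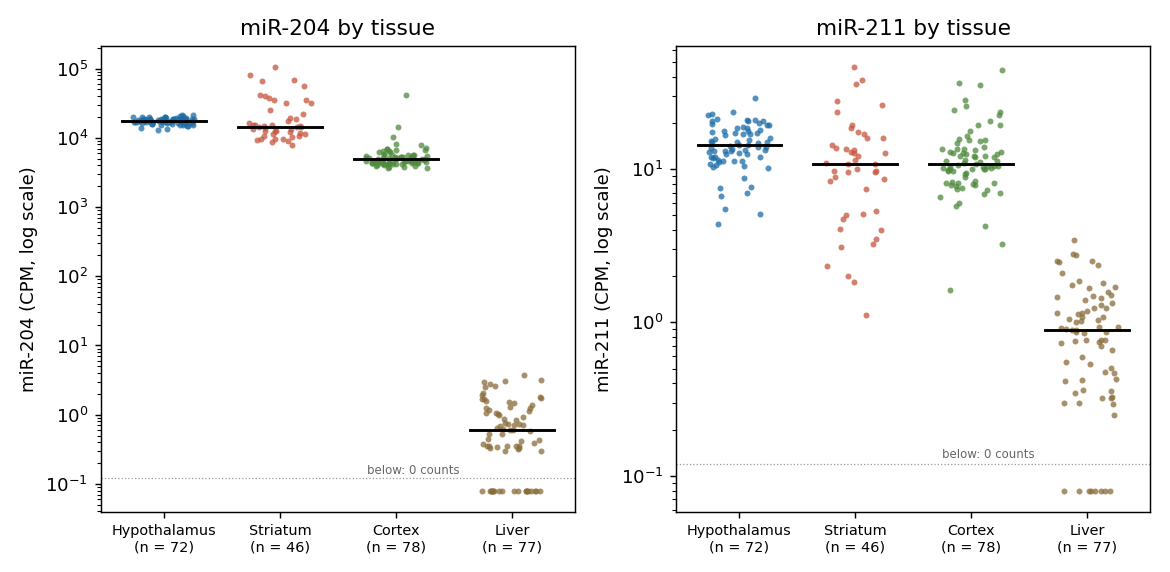
Level of miR-204 (left) and miR-211 (right) in CPM on a log scale, with a point for each library and a line at the median of each tissue; libraries with 0 counts are drawn below the dotted line. miR-204 lies at medians of 17595, 14553 and 4882 CPM in the brain tissues and 0.593 CPM in liver, and miR-211 at 14.3, 10.8, 10.8 and 0.890 CPM.

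Tissues were compared in a fit of all libraries with edgeR's quasi-likelihood test, and a call needed an adjusted p under 0.05 and a log2 ratio of at least 1 in size. miR-204 was higher in hypothalamus than in cortex, with a log2 ratio of 1.58 ± 0.10 (SE, adjusted p = 7.78e-38). It was also higher in striatum than in cortex, with a log2 ratio of 2.04 ± 0.12 (SE, adjusted p = 1.02e-45). Of the 492 hairpins tested, 28% were called between hypothalamus and cortex and 13.8% between striatum and cortex. By size of change miR-204 ranked 64 in the hypothalamus pair and 24 in the striatum pair.

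Between hypothalamus and striatum the order of the levels depended on the summary. The mean ratio was 0.745 and the ratio of medians 1.21, hypothalamus over striatum. The fitted log2 ratio was -0.46 ± 0.12 (SE, adjusted p = 0.000246), which is under the size a call needs; 13.6% of hairpins were called in this pair. With the animal as a block the log2 ratio was -0.078 (adjusted p = 0.541), so a difference was not detected in that fit; with the odd code joined to the mouse it resembles, it was -0.14 (adjusted p = 0.272).

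miR-211 was not called between any pair of brain tissues. The log2 ratio was 0.16 ± 0.11 for hypothalamus over cortex (SE, adjusted p = 0.143). Over the other settings it was 0.091 to 0.45, all under the size a call needs, with adjusted p-values from 4.67e-05 (size factors of DESeq2) to 0.381 (library run as a term); the size factors of DESeq2 put the median of all hairpins at 0.30 in this pair. It was -0.06 ± 0.13 for striatum over cortex (SE, adjusted p = 0.678) and 0.22 ± 0.13 for hypothalamus over striatum (SE, adjusted p = 0.113). With the animal as a block the last of these was 0.45 (adjusted p = 0.000827), or 0.37 (adjusted p = 0.00904) with the odd code joined, still under the size a call needs. The order of striatum and cortex turned with the scaling, to 0.10 with the size factors of DESeq2 and 0.078 in DESeq2 itself; those factors move the median of all hairpins to 0.19 and 0.21 in this pair.

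Against liver the members had to differ, since they passed the filter on low counts through the brain libraries, and their log2 ratios are given as a description. For miR-204 they were 10.86 ± 0.20 in cortex, 12.90 ± 0.21 in striatum and 12.44 ± 0.20 in hypothalamus over liver (SE). For miR-211 they were 1.73 ± 0.15 in cortex, 1.67 ± 0.17 in striatum and 1.89 ± 0.16 in hypothalamus over liver (SE). Of all hairpins 80.3%, 81.9% and 81.1% were called in these pairs (cortex, striatum and hypothalamus over liver), and the median log2 ratio of all hairpins was itself 1.12, 1.15 and 1.09.

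These sizes depend on the scaling. With library totals in place of TMM, miR-211 had log2 ratios of 3.67 in cortex, 3.66 in striatum and 3.91 in hypothalamus over liver, and miR-204 had 12.80, 14.86 and 14.45. The medians of all hairpins were then 3.05, 3.13 and 3.10. In CPM, which use library totals, the median of miR-211 was 12.1 times the liver median in cortex and in striatum and 16.0 times in hypothalamus, on the few counts liver has.

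The ratio of the members within a library needs no scaling between libraries. A median of 1231 miR-204 counts stood beside each miR-211 count in hypothalamus, 1718 in striatum, 458 in cortex and 0.667 in liver. These are ratios of counts, since ligation and amplification can favour either miRNA. The mean log2 ratio of miR-211 to miR-204 was -10.27 ± 0.44 in hypothalamus, -10.83 ± 1.06 in striatum, -8.82 ± 0.75 in cortex and 0.47 ± 1.62 in liver (SD). In brain the members thus differed by orders of magnitude, and in liver both were at the same few counts.

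The cortex ratio stood apart from the other brain blocks. It was 1.46 lower on the log2 scale in hypothalamus than in cortex (difference -1.46, two-sided permutation test with 100000 resamples, adjusted p = 1.2e-05, with 1e-05 the smallest p these resamples can give). Within animals it was higher in hypothalamus in 2 of the 72 with both tissues. For striatum over cortex the difference was -2.02 (adjusted p = 1.2e-05, permutation), and it was higher in striatum in 3 of 45 animals. For hypothalamus over striatum the difference was 0.56 (adjusted p = 7e-05, permutation), with hypothalamus higher in 30 of 43 animals. These permutations leave out the pairing by animal. Sign flips within animals gave -1.46, -2.03 and 0.60 for the 3 pairs (adjusted permutation p = 1.2e-05, 1.2e-05 and 0.00133). Against liver the differences were -9.28 in cortex, -11.30 in striatum and -10.74 in hypothalamus. They are given as a description, since with at most 12 counts of either member the liver ratio could not come near the brain values. The adjustment was over these 6 pairs.

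Because the 5p arms differ by a single base, the lowest ratio is also given. One miR-211 count stood beside 11312 miR-204 counts in the extreme striatum library, beside 3936 in cortex and beside 3324 in hypothalamus. These extremes rest on few miR-211 counts, 4 in that striatum library (ZT0 replicate 6), and set no firm bound. How the authors' counting treated reads with a mismatch was not given in the sources used here.

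A small number of libraries had high miR-204. Striatum had 12 libraries above 2 times the tissue median, in 6 library runs and at 7 times of day, and cortex had 3, in 3 runs. No hypothalamus library passed that mark. The highest was striatum ZT9 replicate 9, where miR-204 held 10.5% of all counts. It was followed by striatum ZT0 replicate 4 with 79630 CPM, ZT3 replicate 5 with 68529 CPM and ZT12 replicate 5 with 67131 CPM. In cortex, ZT0 replicate 1 had 41841 CPM, ZT18 replicate 1 had 14546 CPM and ZT9 replicate 12 had 10384 CPM. The first of these cortex libraries also stood apart over all hairpins.

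Some other miRNAs of the choroid plexus were high in these libraries, and so were some markers of other cells. The list used holds, besides the members, miR-448, miR-1298, miR-1264, miR-1912, miR-1911 and miR-764, known to be hosted by introns of Htr2c on the X chromosome, which encodes a serotonin receptor abundant in choroid plexus epithelium. In striatum, miR-448, miR-1298 and miR-1912 were each above 2 times their median in 11 of the 12 libraries, with at most 7.61-fold, 8.20-fold and 10.8-fold. miR-1264 passed that mark in 3 of the 12 and miR-764 in 2, with at most 2.40-fold and 2.25-fold, and miR-1911 was at 0. In cortex, miR-448, miR-1298 and miR-1912 were above 2 times their median in all 3 libraries, and miR-1264 and miR-764 in 1.

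The other marker lists were read in the same libraries. Multiciliated cells, such as the ependyma that lines the ventricles, were represented by 5 miRNAs. Of these, miR-34c was above 2 times its median in 9 of the 12 striatum libraries and miR-34b in 8, while miR-449a was in none and miR-449c in 2; miR-449b had a median of 0. Over the 46 striatum libraries the summed multiciliated list had a Spearman rho of 0.80 with miR-204, against 0.75 for the choroid plexus list without the members. The rho of miR-449a alone was -0.49 and that of miR-449c -0.06.

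Further lists moved with miR-204 in striatum. The summed list of red blood cells had a rho of 0.62, that of sensory, pineal and pituitary cells 0.57, that of vessels and mural cells 0.48 and that of hepatocytes 0.41. The lists of oligodendrocytes (0.27) and other epithelium (0.26) had lower values, and those of white blood cells (-0.35) and neurons (-0.49) went the other way. The neuron sum is mostly miR-128-1 and miR-128-2 (medians 5416 and 3204 CPM, rho -0.47 and -0.48). The other neuron miRNAs had medians of at most 12.1 CPM and rho between -0.22 and 0.23. They are hairpin copies of miR-124 and miR-9, and how reads matching several hairpins were counted was not given. Their CPM therefore need not be the levels of these miRNAs. Of the white blood cell list, miR-142a and miR-150 had a rho of -0.31 each and miR-223 of 0.32. The hepatocyte sum is nearly all miR-192 (rho 0.41), with miR-122 at a median of 1.05 CPM. miR-375, of the sensory and pituitary list, was above 2 times its median in 7 of the 12 high striatum libraries. The summed red blood cell list was at 438 to 1521 CPM in these 12 and at 198 to 736 CPM in the other 34. The neuron list was at 5160 to 13230 CPM in the 12 and at 3826 to 14604 CPM in the 34. In cortex the rho of miR-204 was 0.51 with the choroid plexus list and 0.21 with the multiciliated list, and lay between -0.11 and 0.14 for the other 8 lists. Hypothalamus had another order, with the highest rho, 0.46, for the neuron list. That sum too is mostly miR-128-1 and miR-128-2 (hypothalamus medians 1533 and 1541 CPM, rho 0.47 and 0.39). The other neuron miRNAs had medians of at most 10.9 CPM there and rho between -0.096 and 0.27. In hypothalamus the rho of miR-204 was 0.23 with the choroid plexus list and 0.16 with the multiciliated list, and between -0.19 and 0.20 for the rest. These values share depth and the common total of CPM, and the part of these cells in the miR-204 levels was not tested.

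Striatum ZT21 replicate 3 was the exception. It had 34862 CPM of miR-204, 2.40 times the striatum median, with 30.4 CPM of miR-448 and 295 CPM of miR-1298, which are 0.206 and 0.196 times their medians. It stood apart over all hairpins. Its miR-10b, at 4844 CPM, was 17.8 times the striatum median, but miR-10b was above 2 times its median in 7 of the 12 high libraries, among them ZT9 replicate 9 (6.89-fold) and ZT3 replicate 5 (6.55-fold).

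miR-211 did not follow in every high library. It was above 2 times its own median in 5 of the 12 striatum libraries and 1 of the 3 cortex libraries. In striatum ZT0 replicate 6, miR-204 was at 35230 CPM and miR-211 at 3.11 CPM, on 4 counts. In cortex, 8 libraries had over 2 times the miR-211 median, and in 7 of them miR-204 was at 0.914 to 1.29 times its median. The highest of these was ZT0 replicate 3, with 44.2 CPM of miR-211, on 121 counts, and 5269 CPM of miR-204.

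Summed over the 6 list miRNAs other than the members, the list was at 745 to 1551 CPM in hypothalamus with a median of 1173 CPM. It was at 337 to 13782 CPM in striatum (median 1790 CPM), at 154 to 7212 CPM in cortex (median 620 CPM) and at 0 to 0.465 CPM in liver. miR-1911 was at 0 in every library, and in liver miR-1264, miR-1912 and miR-764 were too. In hypothalamus, miR-204 and the list were present in all libraries at steady levels. The part of choroid plexus tissue in the levels was not tested.

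The list was also compared between tissues as the members were. Of the 6, 5 were tested, and miR-448, miR-1264 and miR-764 were called higher in hypothalamus than in cortex and none lower; the median log2 ratio of the 5 was 1.39 and that of all hairpins 0.01. All 5 were called higher in striatum than in cortex, with a median of 2.16 against 0.03 over all hairpins. For hypothalamus over striatum, miR-1298 (-1.67 ± 0.14) and miR-1912 (-2.93 ± 0.23) were called lower in hypothalamus (SE, adjusted p = 3.34e-25 and 3.52e-27), and the median of the 5 was -0.91 against 0.0019. miR-448 and miR-1264 went the same way without a call, and miR-764 the other way, at 0.37 ± 0.12 (SE, adjusted p = 0.00441). Of all hairpins, 28%, 13.8% and 13.6% were called in these pairs, in the order given. The list miRNAs share a host gene, so their calls are not independent of each other.

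**Figure D2:**
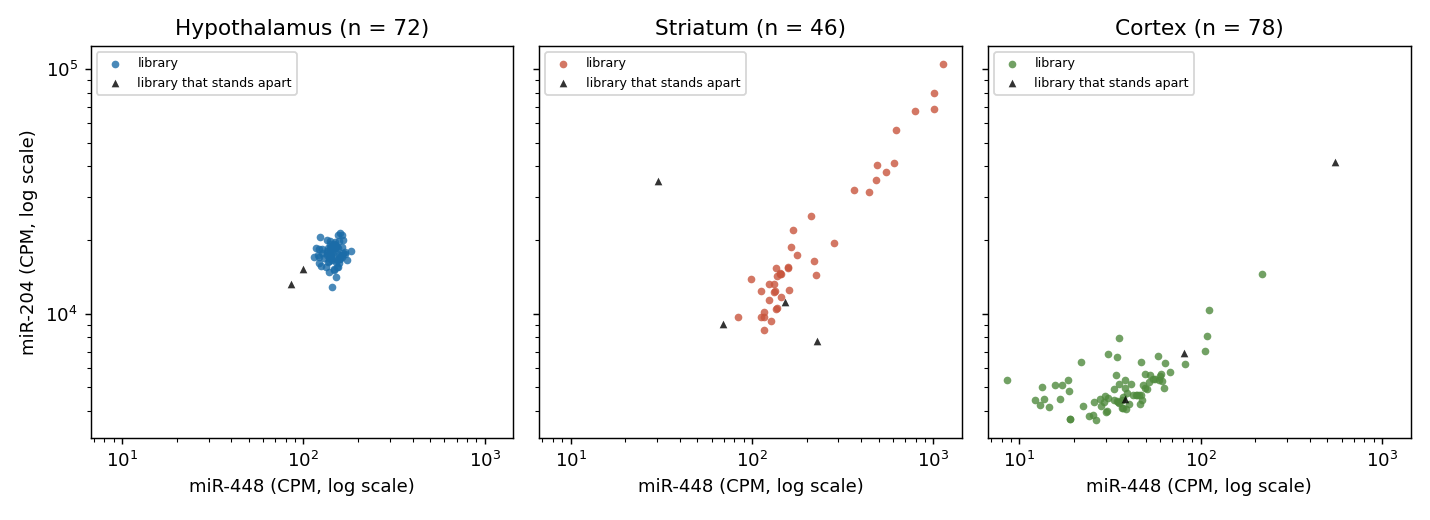
Level of miR-204 against miR-448, both in CPM on log scales, with a point for each library of the hypothalamus (left), striatum (centre) and cortex (right) and black triangles for libraries that stand apart over all hairpins. In striatum and cortex the libraries with the most miR-204, up to 104951 and 41841 CPM, are those with the most miR-448, apart from a striatum triangle at 34862 CPM of miR-204 and 30.4 CPM of miR-448; the hypothalamus libraries form a tight cluster.

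The hairpins most like miR-204 in rank over libraries differed by tissue. In striatum (46 libraries, 314 other hairpins with a mean of at least 10 CPM) they were miR-152 (Spearman rho 0.81), miR-34c (0.80) and miR-448 (0.77). Without the libraries that stand apart, rho was 0.77 for miR-152, 0.83 for miR-34c and 0.91 for miR-448. In cortex (78 libraries, 306 hairpins) they were miR-448 (0.58), miR-1298 (0.52) and miR-34b (0.43). In hypothalamus (72 libraries, 316 hairpins) they were miR-129-1 (0.51), miR-135b (0.51) and miR-7224 (0.48), none of them from the list. These values describe libraries that share runs, depth and the common total of CPM.

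miR-211 had other neighbours. In striatum they were miR-23a (rho 0.75), miR-574 (0.74) and miR-92a-2 (0.73), in cortex miR-421 (0.40), miR-3059 (0.38) and miR-148a (0.37), and in hypothalamus miR-3059 (0.64), miR-1224 (0.55) and miR-107 (0.54). miR-204 ranked 53 of 314 among the hairpins most like miR-211 in striatum, 117 of 306 in cortex and 23 of 316 in hypothalamus.

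The members moved together over hypothalamus and striatum libraries. Pearson's r of log2(CPM + 1) was 0.59 in hypothalamus and Spearman's rho 0.47 (n = 72, permutation test, adjusted p = 4e-05 and 8e-05). Both weakened with TMM-scaled totals, to r = 0.33 (adjusted permutation p = 0.00932) and rho = 0.23 (adjusted permutation p = 0.113). Levels of both differed by run in hypothalamus: run medians of miR-211 lay between 8.18 and 20.7 CPM, and those of miR-204 between 15502 and 19239 CPM. Within the 7 hypothalamus runs of at least 6 libraries, r was 0.11 to 0.78 and rho 0.045 to 0.71. In striatum r was 0.51 and rho 0.50 (n = 46, permutation test, adjusted p = 0.00042 and 0.00104). Within 3 striatum runs r was 0.066 to 0.93 and rho -0.029 to 0.72. How reads with a mismatch were counted was not given, and the part of misassigned miR-204 reads in these relations was not tested.

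In cortex the relation rested on a pair of libraries at most. There r was 0.22 and rho 0.10 (n = 78, permutation test, adjusted p = 0.057 and 0.378), and without the 2 libraries farthest from the miR-204 median r was -0.0096. Within the 7 cortex runs r was -0.64 to 0.70. In liver r was 0.24 and rho 0.21 (n = 77, permutation test, adjusted p = 0.0533 and 0.0883), and without the 2 farthest libraries r was 0.16; within 5 runs it was -0.38 to 0.44. The same removal gave r = 0.55 in hypothalamus and r = 0.40 in striatum. The adjustment was over the 4 tissues.

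**Figure D3:**
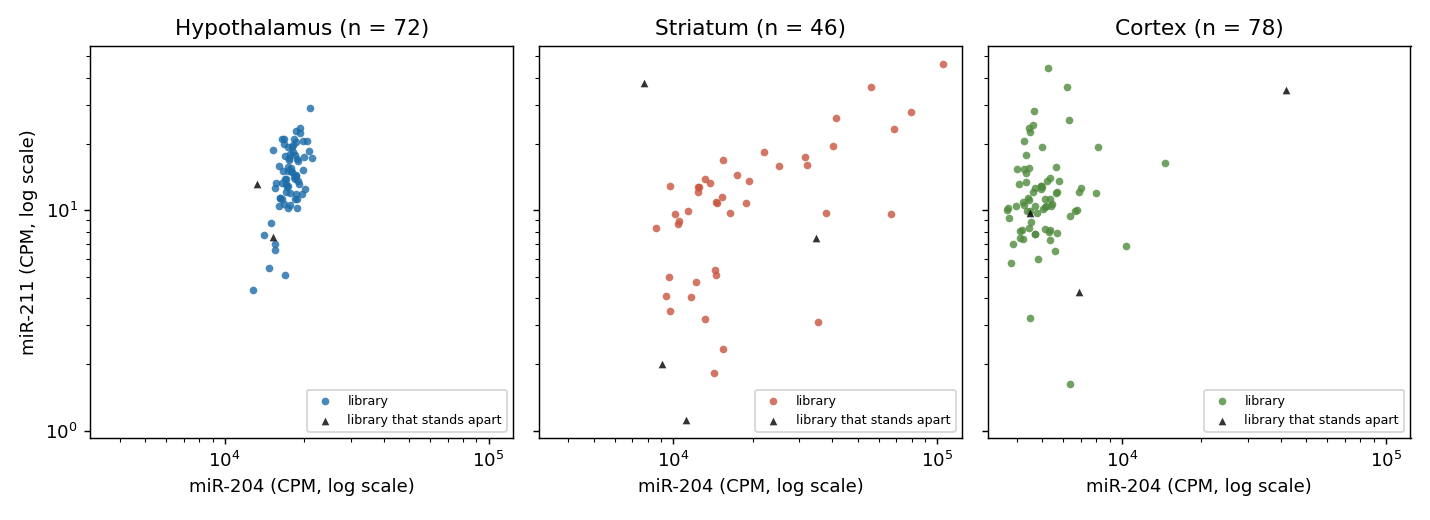
Level of miR-211 against miR-204, both in CPM on log scales, with a point for each library of the hypothalamus (left), striatum (centre) and cortex (right) and black triangles for libraries that stand apart. The cortex libraries with the most miR-211, up to 44.2 CPM, mostly sit at the usual miR-204 level near 4882 CPM.

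Most animals gave several tissues, so the level of a member could be followed across the tissues of a mouse. For miR-204, r over animals was 0.21 between hypothalamus and cortex (n = 72, rho 0.10), 0.16 between striatum and cortex (n = 45, rho 0.25) and -0.0024 between hypothalamus and striatum (n = 43, rho 0.0089). For miR-211 it was 0.085 (n = 72, rho 0.15), 0.34 (n = 45, rho 0.32) and -0.0025 (n = 43, rho 0.15) for the same pairs. With liver, r was -0.077 to 0.14 and rho -0.079 to 0.22 over both members. None of the 12 relations passed an adjusted p of 0.05 by permutation, the lowest being 0.26 for miR-211 between striatum and cortex, whose r fell to 0.075 with the means of the library runs removed and was 0.27 (adjusted permutation p = 0.50) with the odd code joined. Without the libraries that stand apart, miR-211 between striatum and cortex had r = 0.46 (adjusted permutation p = 0.042) and miR-204 between cortex and liver r = 0.31 (adjusted permutation p = 0.0454).

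Single animals are given with their folds of each tissue's median. The mouse of cortex ZT0 replicate 1, at 8.57 times the cortex median of miR-204, had 2.17 times the median in striatum and 1.19 times in hypothalamus. The mouse of striatum ZT0 replicate 4, at 5.47 times the striatum median, had 1.08 times in cortex and 0.885 times in hypothalamus. The mouse of cortex ZT9 replicate 12, at 2.13 times the median, had the lowest striatum value of all, 7745 CPM. Of these 3 mice, only the first had another block above 2 times its median.

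**Figure D4:**
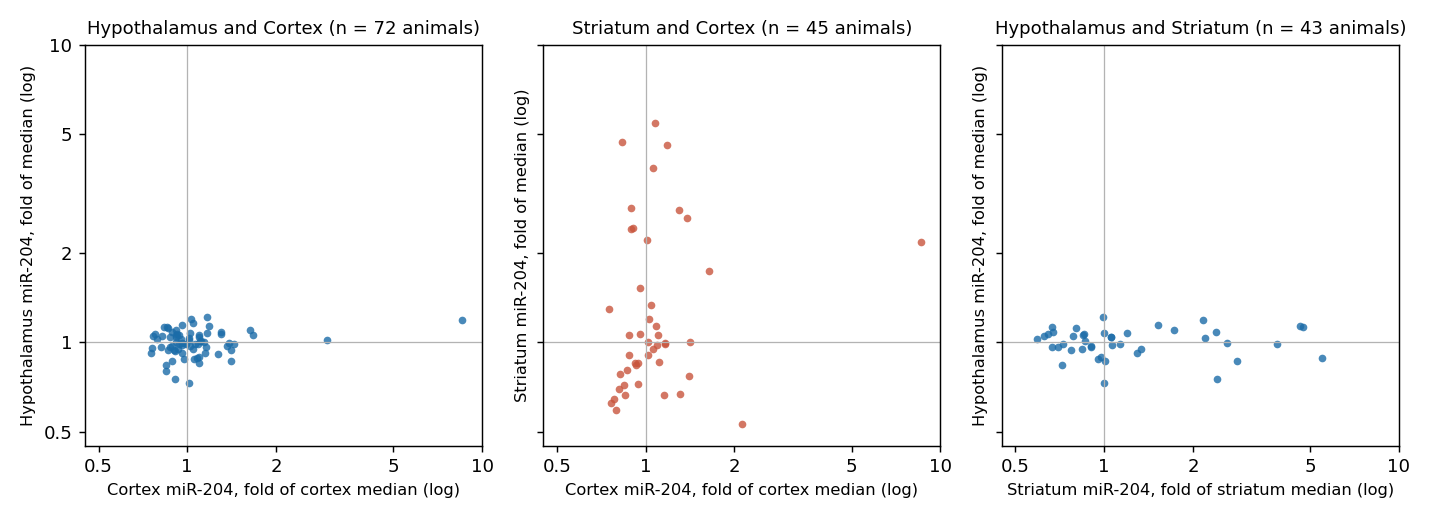
miR-204 of the same animal in a pair of brain tissues, each as a fold of the tissue's median on a log scale, with a point for each animal and grey lines at the median. Hypothalamus values stay close to 1 while those of the same animals reach 8.57-fold in cortex and 5.47-fold in striatum; the highest striatum library, at 7.21-fold, has an animal code found in no other tissue and is not drawn.

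Neither member had a called daily rhythm. The test asked whether a 24 h cosine curve improved the fit, and the size given is the log2 ratio between the peak and the trough of that curve. For miR-204 it was 0.0019 ± 0.052 in hypothalamus, 0.71 ± 0.49 in striatum and 0.31 ± 0.20 in cortex (SE, adjusted p = 0.989 or more). For miR-211 it was 0.10 ± 0.15 in hypothalamus and 0.19 ± 0.48 in striatum (SE, adjusted p = 0.996 or more). Across all hairpins 0.25%, 0.487% and 0.242% were called in hypothalamus, striatum and cortex. In liver neither member passed the filter on low counts.

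Within each brain tissue the ranges of miR-204 at all times of day overlapped. In hypothalamus the mean of miR-204 lay between 17137 ± 1338 CPM at ZT21 (SD, n = 5) and 18265 ± 1843 CPM at ZT15 (SD, n = 5). In cortex the medians of the 8 times lay between 4348 CPM at ZT21 and 5447 CPM at ZT18. In striatum they lay between 13174 CPM at ZT9 and 34862 CPM at ZT21, where 3 of the 5 libraries were above 2 times the tissue median, among them replicate 3, which stands apart. For miR-211 in hypothalamus the means lay between 13.2 ± 4.99 CPM at ZT21 and 17.6 ± 8.05 CPM at ZT15 (SD, n = 5 each).

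miR-211 in cortex came closest. Its peak-to-trough log2 ratio was 0.77 ± 0.20 with a peak at ZT21.5 ± 1.04 h (SE), the fourth smallest p of 413 hairpins (unadjusted p = 0.00086, adjusted p = 0.0808). Over 8 other settings the adjusted p ran from 0.0484 (DESeq2) to 0.592, and in 7 of the 8 the rhythm stayed uncalled. Leaving out single libraries gave adjusted p-values between 0.0396 and 0.226. The mean was 19.1 ± 11.9 CPM at ZT0 (SD, n = 12), 9.63 ± 4.28 CPM at ZT9 (SD, n = 12), 9.22 ± 3.04 CPM at ZT15 (SD, n = 6) and 15.0 ± 6.25 CPM at ZT21 (SD, n = 6). The ZT0 libraries ran from 6.01 to 44.2 CPM and those of ZT9 from 4.26 to 19.3 CPM, so the times overlapped. Of the 8 cortex libraries above 2 times the median, 5 were collected at ZT0 and the others at ZT6, ZT18 and ZT21.

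No difference in rhythm between tissues was called for either member. For miR-211 the fitted difference was 0.64 for hypothalamus with cortex (unadjusted p = 0.0425, adjusted p = 0.9997), 0.87 for striatum with cortex (adjusted p = 0.861) and 0.27 for hypothalamus with striatum (adjusted p = 0.975). For miR-204 it was 0.27, 0.45 and 0.66 in the same pairs (adjusted p = 0.9997, 0.983 and 0.957). Of all hairpins 0%, 0.877% and 0.698% were called in these pairs; for hypothalamus with cortex, edgeR and DESeq2 both called 0, with 13 hairpins at an unadjusted p under 0.05 in edgeR. For cortex, striatum and hypothalamus with liver 1.39%, 1.5% and 0.907% were called, and the adjusted p of the members was 0.262 or more.

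**Figure D5:**
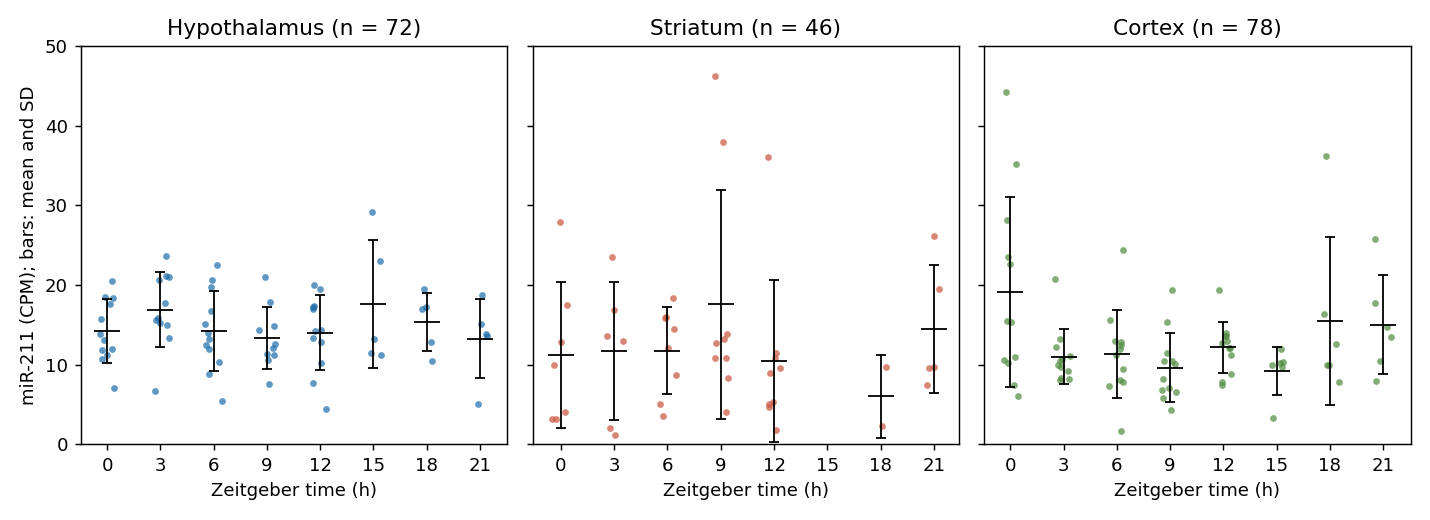
Level of miR-211 in CPM by zeitgeber time in hypothalamus (left), striatum (centre) and cortex (right), with a point for each library and bars for the mean and SD at each time; no striatum library was collected at ZT15. In cortex the ZT0 mean of 19.1 CPM is the highest, as is the ZT0 median of 15.4 CPM, and libraries of up to 44.2 CPM raise the mean.

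The series covers ZT0 to ZT12 on consecutive days, at 24 to 36 h and at 0 to 12 h, which repeats the same times of day in other animals. miR-204 in striatum averaged 29394 ± 27991 CPM on the second passage (SD, n = 21) and 15150 ± 7831 CPM on the first (SD, n = 18), with 6 and 2 libraries above 2 times the tissue median. The log2 ratio was 0.96 ± 0.31 (SE, unadjusted p = 0.00455, adjusted p = 0.278), and it was 0.67 without striatum ZT9 replicate 9. miR-1298 (1.11 ± 0.35) and miR-448 (1.04 ± 0.33) of the choroid plexus list had the smallest unadjusted p-values of the 397 hairpins there, followed by miR-204 (SE, adjusted p = 0.278 each). No hairpin was called between passages in striatum by edgeR or DESeq2, with 47 at an unadjusted p under 0.05 in edgeR; 0% were called in hypothalamus too, with 4 of 395 at an unadjusted p under 0.05.

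In hypothalamus no difference between passages was called for miR-204, at 17712 ± 1692 CPM on the second (SD, n = 30) and 17476 ± 1965 CPM on the first (SD, n = 27), a log2 ratio of 0.02 ± 0.04 (SE, adjusted p = 0.994). In cortex, where 29% of hairpins were called between passages, miR-204 had a log2 ratio of -0.33 ± 0.15 (SE, adjusted p = 0.106). Without cortex ZT0 replicate 1 it was -0.093 (adjusted p = 0.393), and with the library run as a term -0.46 (adjusted p = 0.0485, called). miR-211 had 0.06 ± 0.11 in hypothalamus, 0.58 ± 0.31 in striatum and 0.17 ± 0.15 in cortex (SE, adjusted p = 0.994, 0.429 and 0.418). In liver the members were not tested; on the second passage miR-204 averaged 0.977 ± 0.796 CPM (SD, n = 29) and on the first 0.838 ± 1.05 CPM (SD, n = 30).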

How the data were processed

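Small RNA was sequenced from hypothalamus, striatum, cortex and liver of wild-type mice. The deposited tables hold whole-number counts per library and miRNA hairpin, made by the authors and not normalized. Per the submitters' processing notes, the tools included HTSeq 0.10.0 and STAR 2.7.3a and the build was GRCm38. Trimming, miRBase release and the handling of mismatches and multiple matches were not given in the sources used here. Every sample column was mapped from its name.

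CPM were computed from library totals. Tests used edgeR 4.0.16 (R 4.3.3; TMM, filterByExpr, quasi-likelihood F tests) with Benjamini-Hochberg adjustment over all hairpins tested; DESeq2 1.42.0 was an alternative. SE are Wald errors of unshrunk coefficients. Permutation tests and plots used matplotlib 3.10.9, SciPy 1.17.1, numpy 2.4.6 and pandas 2.3.3 in Python 3.11.15. Scripts were tested on simulated data. Replicate numbers do not pair libraries (42 of 359 same-numbered pairs share an animal), while the animal code does. It served as the block only where a block or sign flips are named, and the main fits and tests had none. Where animals are not shared, p-values measure the spread between libraries.

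The members, lists and naming rules (list members, and the 3 hairpins of highest rho per member and tissue) were chosen with earlier results of these data known. Libraries stand apart by a total under 10% of the tissue median or a correlation more than 5 scaled median absolute deviations low.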

Additional observations from a re-analysis of the deposited data

Results flagged for a closer look

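Libraries were checked against the others of their tissue and time for groups of 4 to 10, in 39 groups of miR-204, miR-211 or their log2 ratio in brain. A library counted when its gap to the nearest other exceeded Dixon's 95% critical share of the range. For normally distributed values chance passes about 1 in 20 groups, or 1.95 of 39, and 9 passed. Levels in striatum and cortex had a tail of high libraries, and the ratio reuses the counts of both members. The value 1.95 is therefore no firm chance count here. miR-204 stood at 104951 CPM in striatum ZT9 replicate 9, against 7745 to 18815 CPM in the other 8 libraries. It stood at 79630 CPM in striatum ZT0 replicate 4, against 11381 to 35230 CPM, and at 68529 CPM in striatum ZT3 replicate 5, against 9100 to 19412 CPM. In cortex ZT18 replicate 1 it stood at 14546 CPM, against 4468 to 6750 CPM. All 4 are libraries in which miR-448 and miR-1298 were also above 2 times their medians.

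miR-211 stood at 36.1 CPM in striatum ZT12 replicate 1, against 1.83 to 11.5 CPM, in a library that also had 56052 CPM of miR-204. It stood at 36.1 CPM in cortex ZT18 replicate 4, against 7.80 to 16.3 CPM, and at 3.24 CPM in cortex ZT15 replicate 2, on the low side of 9.67 to 12.0 CPM. The log2 ratio of miR-211 to miR-204 stood at -10.29 in the last of these libraries, against -9.35 to -8.83. In striatum ZT9 replicate 6 the ratio stood at -7.09, against -11.14 to -9.88; that library has 26341 counts in all, 1 of them miR-211.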

How the results depend on the processing

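Of the values recomputed under another setting, 501 of 562 kept their direction and their side of the threshold, or a count within 1.5 times. Of those recomputed without 1 library, 1697 of 1716 did, which makes 2198 of 2278 together. Rhythm sizes have no sign, so only their side of the threshold could change. The calls of miR-204 in hypothalamus and striatum over cortex held in all settings run. For tissue comparisons, ratios and rhythm differences, single libraries were left out only from the smallest groups. These were hypothalamus at ZT15, ZT18 and ZT21 and striatum at ZT18 and ZT21. No cortex or liver library was left out alone there. With the animal as a replicate block, no call of a member changed, also with the odd animal code joined, a choice made after seeing the data; in both the counts of rhythm differences fell to 0 for striatum with cortex, 0 for hypothalamus with striatum, 2 for cortex with liver, 1 for striatum with liver and 2 for hypothalamus with liver. The cause of the changes below was not tested.

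miR-211 for striatum over cortex turned sign to 0.10 with the size factors of DESeq2, 0.078 in DESeq2 and 0.00644 without the libraries that stand apart. Its cortex rhythm passed in DESeq2 (0.77, adjusted p = 0.0484) and ranged from 0.66 to 0.84 over libraries left out, passing without ZT3 replicate 4 (adjusted p = 0.0396) and without ZT18 replicate 6. It stayed uncalled in 7 of the 8 other settings, with an adjusted p of up to 0.592. With the library run as a term, miR-204 passed between cortex passages (-0.46) and miR-211 turned to -0.0088. DESeq2 gave no adjusted p for miR-204 there.

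Counts of rhythm differences for striatum with liver were 4 with the size factors of DESeq2, 3 with library totals and 2 without the libraries that stand apart; leaving them out gave 0 for striatum with cortex and 0 for hypothalamus with striatum. DESeq2 called 1 for hypothalamus with striatum, and no filter gave 3 for cortex with liver. Over 7 libraries left out they ranged from 0 to 7 for striatum with cortex, and over 7 from 1 to 13 for striatum with liver. Over 22 left out they ranged from 0 to 4 for hypothalamus with striatum. Each was lowest without striatum ZT21 replicate 3. Rhythm calls in striatum were 1 with library totals, 1 in DESeq2, 1 without the libraries that stand apart, 4 with no filter, and 0 with the run as a term, at 0 to 21 h and at 15 to 36 h. In cortex they were 8 in DESeq2, 7 at 0 to 21 h and 5 at 15 to 36 h, and in hypothalamus 4 and 5 in these spans. Over libraries left out they ranged from 1 to 10 in cortex, 1 to 5 in hypothalamus and 1 to 4 in striatum. With no filter, tissue calls were 217 for hypothalamus over cortex, 105 for hypothalamus over striatum, and 629, 631 and 651 for cortex, striatum and hypothalamus over liver.

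Spearman's rho of the members in hypothalamus was 0.23 with TMM-scaled totals. Across tissues of an animal the relations that turned sign were near 0. For hypothalamus with striatum, r of miR-204 was 0.20 with TMM-scaled totals and 0.051 without the libraries that stand apart, and r of miR-211 was 0.034 and 0.058 in these and 0.061 with run means removed, and 0.036 with the odd code joined. Without the libraries that stand apart, miR-204 between cortex and liver (0.31) and miR-211 between striatum and cortex (0.46) passed, and miR-211 between cortex and liver was 0.026 (rho 0.016), or 0.014 with log2(CPM + 0.1). Removing run means, a choice made after seeing the data, gave for miR-204 r = -0.028 (striatum with liver) and -0.030 (hypothalamus with liver), and rho = -0.0083 (hypothalamus with cortex), -0.041 (hypothalamus with striatum), -0.052 (striatum with liver) and -0.085 (hypothalamus with liver). It gave for miR-211 between hypothalamus and liver r = -0.11 and rho = -0.12, and rho of miR-204 in that pair was -0.021 with TMM-scaled totals. Counts of miR-211 of 24 to 35 per brain library at the median, and of 2 to 3 for either member in liver, limit what can be seen.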
